A study of Mus musculus with 8 samples.

Results

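The sites described here are 354 regions of open chromatin that were listed as DNase I hotspots in parental 3134 cells with and without tetracycline and in DNCHD4 cells with tetracycline, but were not listed in DNCHD4 cells after tetracycline was removed. They were found by merging the hotspots of 8 deposited lists wherever these overlapped by 1 bp or more, which gave 99999 sites on mouse build mm9. They are called unlisted sites below. The 28297 sites present in all 4 parental and DNCHD4 lists are called retained sites and serve as the comparison. The unlisted sites made up 354 of 28651 sites that met the other 3 conditions, or 1.24% (95% Wilson interval 1.11 to 1.37). Listing in the parental and DNCHD4 libraries chose the sites, so their values in those 4 libraries are a description. The DNBrg1 and DNSnf2h libraries did not enter the choice.

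DNase-seq was done on 3134 cells, a mouse mammary epithelial line, and on 3 derived lines. Parental cells were measured with tetracycline and without it. DNCHD4 cells carry mouse Chd4 with a triple FLAG tag and a change of lysine 250 to cysteine, under a tetracycline-regulated promoter. DNSnf2h cells carry FLAG-tagged human SNF2H with a change of lysine 211 to arginine. DNBrg1 cells carry a dominant-negative Brg1, whose construct the labels used here do not describe. The DNCHD4 and DNSnf2h constructs were integrated into a 3134 line that holds the tetracycline transactivator. The labels do not say whether the parental cells hold it or whether a derived line is a single clone. The derived lines were kept in 5 µg/ml tetracycline, which represses the construct. All 8 cultures were plated for 48 hours in charcoal-stripped serum, with tetracycline (uninduced) or without it (induced). Each line and tetracycline state was measured in 1 library, so the differences below rest on single libraries and were not tested.

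Chd4 is the nucleosome-remodeling ATPase of the NuRD complex, which also contains histone deacetylases and is recruited to enhancers and promoters. Brg1 drives the SWI/SNF complexes, which evict and slide nucleosomes, and Snf2h drives the ISWI complexes, which space nucleosomes. DNase I cuts DNA where nucleosomes are absent or unstable, so a hotspot marks a promoter, enhancer or other regulatory element that is accessible in many of the cells. An ATPase mutant that still enters its complex can block the remodeling done by the normal protein.

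The density of a site is the highest tag density of its hotspots in a library, in the authors' scaled units. All densities of a library were whole multiples of a fixed step, within 0.05 tags, so they could be read as tags. Each list started at its own lowest density, which ranged from 5.09 in induced DNCHD4 cells (26 tags) to 16.4 in uninduced DNBrg1 cells (28 tags). The induced DNCHD4 list was the longest, at 78093 hotspots. Absence from a list is therefore read here as a density below its lowest listed value, not as an absence of cuts. The filters of the hotspot caller are unknown, so a hotspot above that value may also be unlisted. Every bound on a fall given below rests on this reading, which was not tested. The numbering of the induced DNCHD4 list had a number missing at the position of 2 unlisted sites, where a hotspot may have been dropped before deposit.

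Most unlisted sites were weak in parental cells and of moderate density in uninduced DNCHD4 cells. In uninduced DNCHD4 cells their density ran from 8.23 to 74.4 with a median of 19.9, which is a median of 111 tags. In parental cells it ran from 13.0 to 75.3 with a median of 18.9 with tetracycline, and from 10.04 to 45.3 with a median of 13.1 without it. Retained sites had medians of 44.0, 41.2 and 29.9 in the same order, so the unlisted sites came from the lower part of the range. In the parental list without tetracycline, 253 of the 354 sites (71.5%) stood under 1.5 times the lowest density of that list, against 16.1% of retained sites. In the uninduced DNCHD4 list 37 (10.5%) stood that close to the threshold, against 2.12% of retained sites. The share of sites that were unlisted fell from 5.80% at an uninduced DNCHD4 density of 8 to 12, to 2.33% at 20 to 25 and 0.286% at 40 to 80. The number of sites depended on the thresholds. With the parental and uninduced DNCHD4 lists limited to 1.5 times their lowest density, and the induced DNCHD4 list left whole, 79 met the rule. When the parental and DNCHD4 lists shared a common threshold, 707 did.

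**Figure D1:**
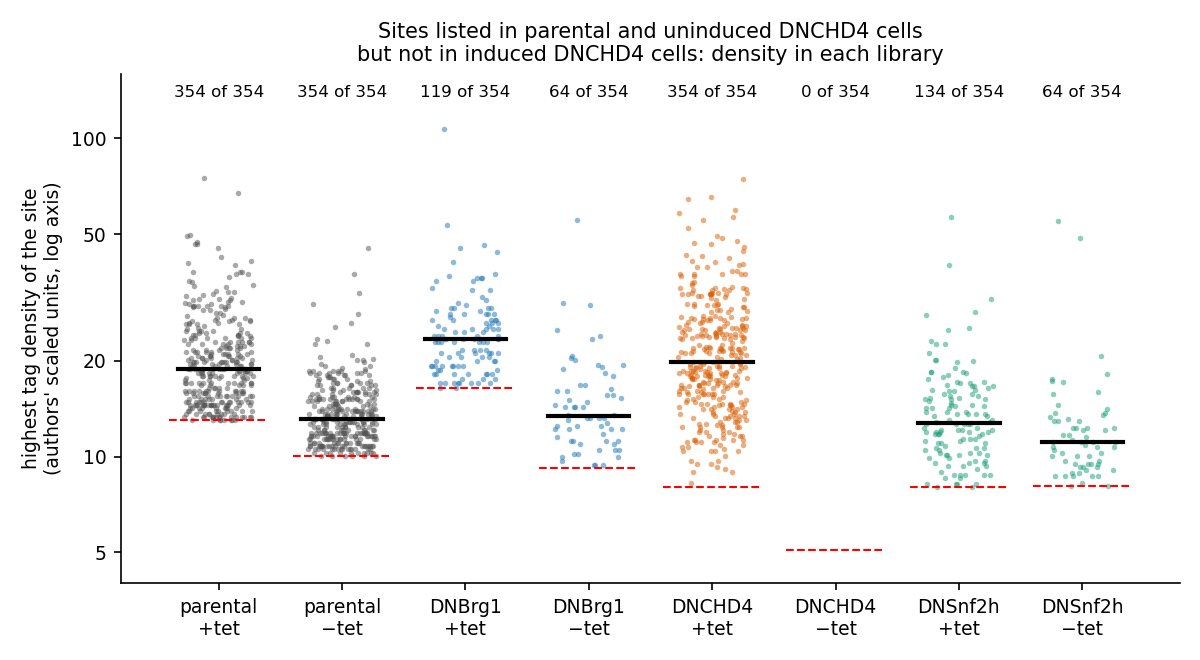
Highest tag density of each of the 354 unlisted sites in each of the 8 libraries (log axis, authors' scaled units), with 1 point per site that the library listed. Black bars are medians, dashed red lines are the lowest density of each list, and the numbers give how many sites were listed. The induced DNCHD4 library has the lowest threshold of all, at 5.09, and lists none of the sites.

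Measured against the lowest density of the induced DNCHD4 list, 344 of the 354 sites fell at least 2-fold and 172 at least 4-fold, and the median bound was 3.90-fold. Over all 84024 sites of the DNCHD4 line, 9.66% were called lower by this 2-fold rule. Since the choice of sites fixed this direction, nothing follows from that contrast. The bound is also generous, because the list seldom reached its lowest density near these sites. Within 50 kb, the lowest induced hotspot had a median density of 10.97. Against that local value the median bound was 1.73-fold, and 143 sites (40.4%) stood at least 2-fold above it. Another 33 sites (9.32%) stood below the local value, so that no fall is shown for them. The local value is the lowest hotspot listed nearby, not a detection limit, so a local bound holds only if the site lay below it. Shares of all sites under the 4-fold and local rules were not computed.

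The threshold separated sites of similar strength at the weak end. The weakest unlisted site in uninduced DNCHD4 cells, chr18:35249023-35249620, had a density of 8.23 there. The next, chr11:116609470-116610548, had 8.95, a value shared by chr10:3326181-3326853. Just outside the rule, the retained sites with the lowest induced DNCHD4 density were chr3:16366236-16366967, which went from 17.4 to 5.88, and chrX:72125471-72125753, which went from 8.77 to 5.88. A site of 8 to 9 units could thus stand on either side of the rule.

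**Figure D2:**
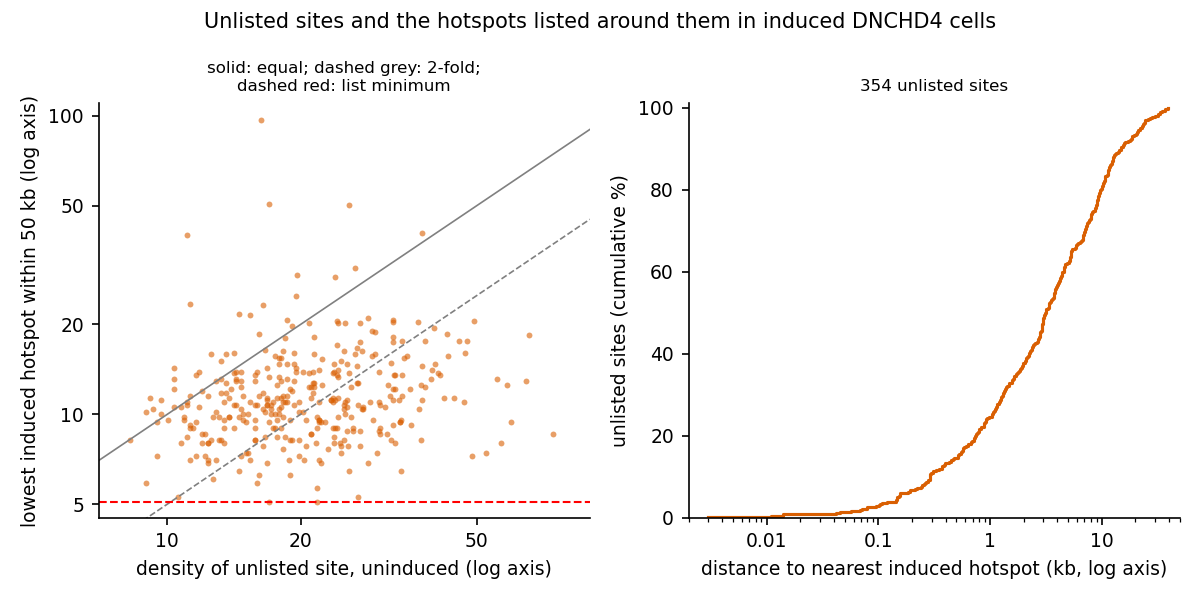
Left, density of each of the 354 unlisted sites in uninduced DNCHD4 cells against the lowest induced DNCHD4 hotspot within 50 kb (log axes, authors' scaled units). Sites below the dashed grey line, 143 in all, were at least 2-fold above that local value, and 33 lie above the solid line of equality. Right, cumulative share of the sites by distance to the nearest hotspot of induced DNCHD4 cells (log axis), with a median of 3140 bp.

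The strongest unlisted sites were accessible in several lines. They are the 6 with the highest density in uninduced DNCHD4 cells, outside dense clusters and away from missing numbers, and their gene context was not analysed here. At chr18:73762917-73763858 density was 74.4 in uninduced DNCHD4 cells, 75.3 and 20.1 in parental cells with and without tetracycline, 20.5 in uninduced DNBrg1 cells, and 25.4 and 12.9 in DNSnf2h cells. The induced DNCHD4 and DNBrg1 libraries did not list it. In uninduced DNCHD4 cells it stood 8.64-fold above the lowest induced hotspot within 50 kb, its local bound. In parental cells its density fell 3.75-fold (95% exact interval on tags 2.90 to 4.91). In DNSnf2h cells it fell 1.97-fold (1.45 to 2.69). For DNBrg1 a fall is not shown, because the only induced hotspot within 50 kb had a density of 105.6. Intervals on tags and on shares cover counting error only, because tags counted without molecular identifiers may be copies of 1 molecule.

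At chr11:100110070-100110947 density was 59.6 in uninduced DNCHD4 cells, 35.3 and 10.04 in parental cells, and 28.4 and 8.87 in DNSnf2h cells. Neither DNBrg1 library listed this site. It fell 3.52-fold (2.43 to 5.20) in parental cells and 3.20-fold (2.28 to 4.59) in DNSnf2h cells, and its local bound in DNCHD4 cells was 6.34-fold. The site at chr17:46040298-46041195 had 58.5 in uninduced DNCHD4 cells, 49.3 and 15.4 in parental cells, 25.8 in uninduced DNBrg1 cells, and 12.1 in each DNSnf2h library. There the fall was 3.19-fold (2.36 to 4.37) in parental cells, and the DNSnf2h ratio was 0.996 (0.690 to 1.44). The lines therefore did not all move together at this site.

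At chr11:22743638-22744417 density was 56.7 in uninduced DNCHD4 cells, 46.5 and 28.1 in parental cells, 9.44 in induced DNBrg1 cells, and 20.2 and 9.07 in DNSnf2h cells. Its local bound in DNCHD4 cells was 7.06-fold, beside falls of 1.66-fold (1.29 to 2.14) in parental and 2.22-fold (1.56 to 3.22) in DNSnf2h cells. The others, chr7:152503292-152504015 and chr16:10574836-10575623, had local bounds of 3.57-fold and 4.98-fold. Their falls in parental cells were 1.79-fold (1.44 to 2.22) and 1.62-fold (1.20 to 2.20). The rule required these sites to leave the induced DNCHD4 list and to stay in both parental lists, so nothing follows from the greater bounds in DNCHD4 cells.

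**Figure D3:**
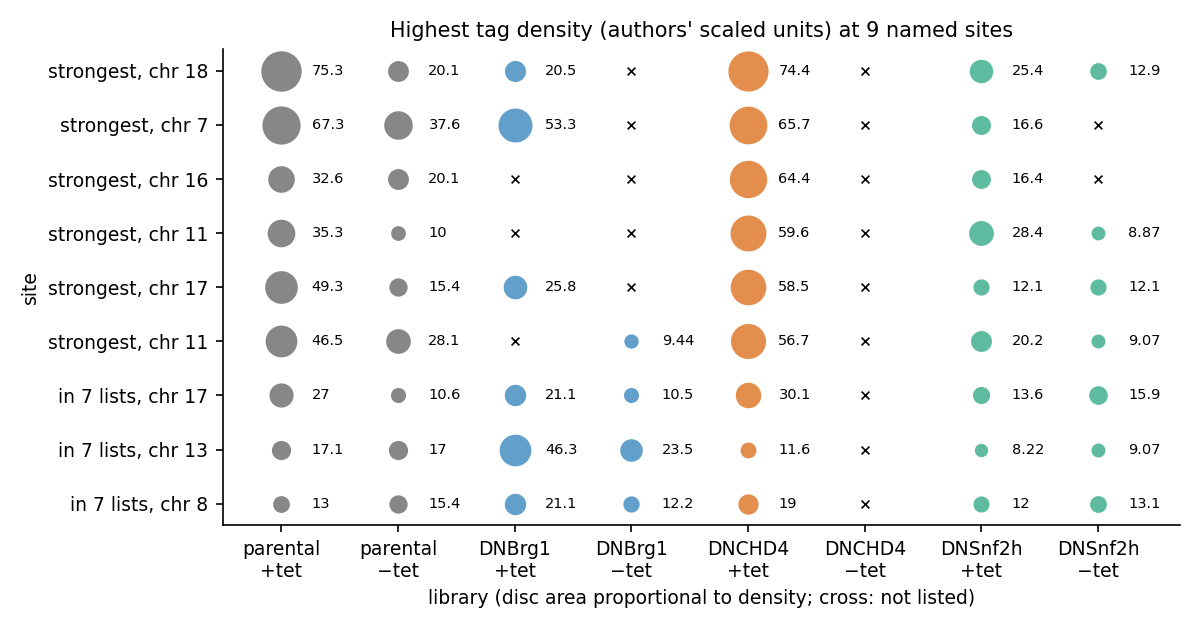
Highest tag density (authors' scaled units, printed beside each disc) in the 8 libraries at the 6 strongest unlisted sites and at the 3 that were listed in all 7 other libraries. Disc area is proportional to density and a cross marks a library that did not list the site. At the 6 strongest sites density is lower in parental cells without tetracycline than with it, and the induced DNBrg1 library lists 1 of them.

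Density was also lower without tetracycline in parental cells, and the gap was wider at the stronger unlisted sites. The median log2 ratio, without over with tetracycline, was -0.49 at unlisted and -0.40 at retained sites. A ratio below 1 was found at 328 of 354 unlisted sites (92.7%) and at 83.2% of retained sites. As deposited, 47 unlisted sites (13.3%) were at least 2-fold lower, against 9.71% of all parental sites and 8.7% of those in both parental lists. When the median ratio of the line was set to 1, 13 (3.67%) were lower, against 2.3%. None was 2-fold higher, which allows a share of up to 0.847%, against 0.666% of all parental sites. The gap between the groups was greater at sites with an uninduced DNCHD4 density of 25 to 80, where 36 of 112 unlisted sites (32.1%, interval 24.2 to 41.3) were at least 2-fold lower, against 12.03% of 13753 retained sites (11.5 to 12.6). Below a density of 25 the shares were 4.55% and 4.04%. With the median ratio set to 1, the shares at 25 to 80 were 11.6% and 2.55%.

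The same trend was seen band by band. At a density of 8 to 12 the parental median was -0.30 at unlisted and -0.23 at retained sites. At 25 to 30 it was -0.66 against -0.41, at 30 to 40 it was -0.83 against -0.47, and at 40 to 80 it was -0.87 against -0.50. The gap between the groups was thus widest in the 3 strongest bands. Both parental lists were used to choose the sites, and a site lost from the parental list without tetracycline could not enter either group. How much of the fall in DNCHD4 cells went with tetracycline removal itself was not tested.

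**Figure D4:**
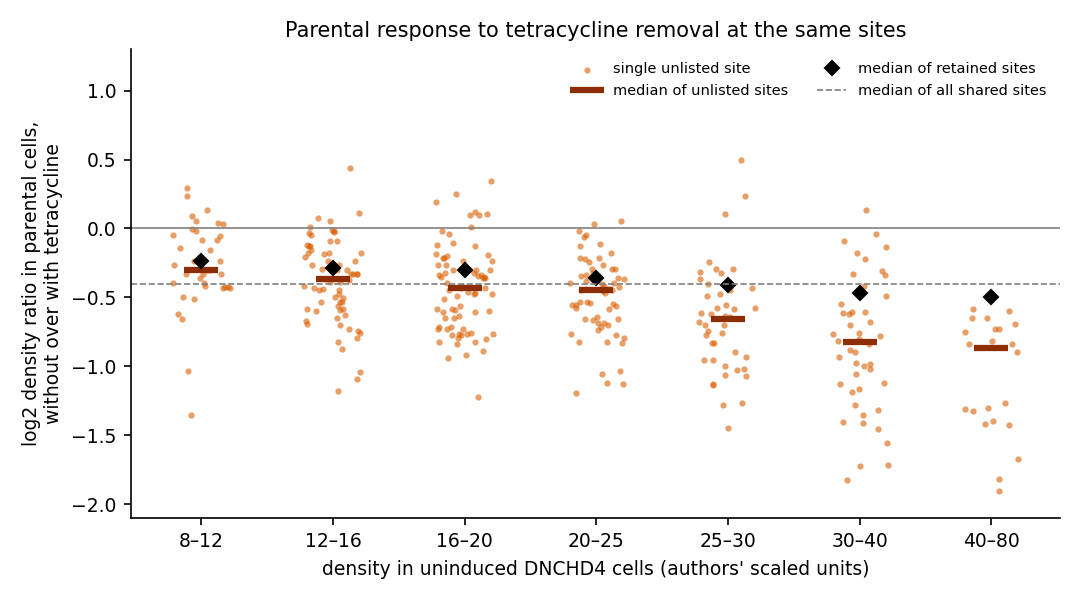
Log2 ratio of density in parental cells, without over with tetracycline, at each unlisted site (points), grouped by density in uninduced DNCHD4 cells (authors' scaled units). Bars are medians of unlisted sites, diamonds medians of retained sites, and the dashed line is the median of all shared parental sites, at -0.40. From a density of 25 upwards the medians of unlisted sites lie well below those of retained sites, down to -0.87 against -0.50.

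Unlisted sites were listed less often than retained sites in DNBrg1 cells, even before induction. The uninduced DNBrg1 list had the highest threshold of all, at 16.4, close to the median density of the unlisted sites in parental cells with tetracycline. The uninduced DNBrg1 list held 119 of 354 sites (33.6%, interval 28.9 to 38.7), against 82.6% of retained sites (82.1 to 83.0). The induced list held 64 (18.1%, 14.4 to 22.4), against 77.3% (76.8 to 77.8). The gap was present in every band of uninduced DNCHD4 density. Sites matched in this way still differed in parental cells. In the 40 to 80 band the median parental density was 35.03 at unlisted and 51.5 at retained sites with tetracycline, and 17.8 and 37.6 without it. At an uninduced DNCHD4 density of 16 to 20, 34.2% of unlisted and 57.7% of retained sites were in the uninduced DNBrg1 list. At 40 to 80 the shares were 10 of 22 sites (45.5%, 26.9 to 65.3) and 92.8% (92.2 to 93.4). Intervals of the groups did not overlap in any band, in either DNBrg1 library.

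Where the uninduced DNBrg1 list held an unlisted site, the induced DNBrg1 list often did not. Of the 119 sites in the former, 75 were absent from the latter, and 20 appeared only after induction. At a density of 25 to 80, 35 of 44 such sites (79.5%, 65.5 to 88.8) were lost, against 16.5% of retained sites (15.9 to 17.2). Below 25 the shares were 53.3% and 21.5%. All 10 of the sites in the 40 to 80 band were lost, against 14.3% of retained sites there. The groups were matched on uninduced DNCHD4 density, not on DNBrg1 density. Median log2 ratios of uninduced DNBrg1 to uninduced DNCHD4 density in that band were -0.81 at unlisted and -0.20 at retained sites. Over all bands, median uninduced DNBrg1 density was 23.4 at listed unlisted and 46.3 at listed retained sites. The unlisted sites thus started nearer the list minimum of 16.4, whose part in the losses was not tested. By the 2-fold rule, 75 of the 139 unlisted sites in either DNBrg1 list (54.0%) were lower, against 29.6% of all sites of the line. Of retained sites in either list, 32.3% were lower. The 75 lower sites include 12 that stayed in both lists, so they are not the same set as the 75 lost sites. The others were all lost sites, so their calls restate the loss of listing. For a lost site the induced list minimum of 9.19 stood in, and the uninduced list began at 16.4. A lost site was thus called lower from little above 16.4, while a gained site had to stand 2-fold above 16.4 to be called higher. A single unlisted site was 2-fold higher (0.719%), against 0.26% of all sites of the line.

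The DNBrg1 calls depended on scaling and on the sites listed in a single library. With the median ratio of the line set to 1, 13 sites (9.35%) were lower, which is near the 8.89% of all sites. Among the 44 sites in both DNBrg1 lists, 12 (27.3%) were lower as deposited, against 26.2% of all sites so listed. All 44 had a ratio below 1, as did 89.2% of retained sites in both lists. The median log2 ratio was -0.72 at the 44 sites and -0.64 at retained sites. Of the 44, 28 (63.6%, 48.9 to 76.2) had a ratio below the median of the line, against 49.9% of retained sites. Sites that fell below the threshold cannot be among the 44, and the size of their falls was not measured.

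Outside dense clusters and missing numbers, both DNBrg1 lists held 7 unlisted sites whose higher value was at least 2-fold above the list minimum. The lower value could stand near the minimum of its list. Of these 7, chr4:31906606-31907415 changed most in DNBrg1 cells. Its density was 107 in uninduced and 29.9 in induced DNBrg1 cells, a fall of 3.59-fold (2.83 to 4.57), beside 22.01 in uninduced DNCHD4 cells and 19.5 and 15.96 in parental cells. Its highest value was thus in uninduced DNBrg1 cells. At chr12:70559192-70559894 density fell from 45.1 to 15.1 in DNBrg1 cells, 3.00-fold (2.11 to 4.28), beside 14.6 and 13.6 in parental cells. At chr11:113509363-113510016 it fell from 36.9 to 12.5 in DNBrg1 cells, 2.95-fold (2.00 to 4.38). The smallest falls of the 7 were at chr13:32503348-32503994, from 36.3 to 24.0, and at chr10:89061901-89062619, from 41.0 to 25.0. These falls of 1.51-fold (1.08 to 2.11) and 1.64-fold (1.19 to 2.25) were close to those in parental cells there, of 1.42-fold (1.03 to 1.98) and 1.62-fold (1.16 to 2.29). At chr15:6520746-6521389 the falls were 1.80-fold (1.25 to 2.57) in DNBrg1 and 1.86-fold (1.27 to 2.73) in parental cells.

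In uninduced DNSnf2h cells the unlisted sites were listed about as often as, or more often than, retained sites of the same uninduced DNCHD4 density. They were nevertheless weaker in parental cells, as given above for the 40 to 80 band. The uninduced DNSnf2h list held 134 of 354 unlisted sites (37.9%, 32.96 to 43.0), against 64.2% of retained sites (63.6 to 64.7). Within bands of density this gap was not seen. At an uninduced DNCHD4 density of 8 to 12 the shares were 8.11% of unlisted and 8.32% of retained sites. At 20 to 25 they were 40.3% (29.0 to 52.8) and 30.4% (28.6 to 32.2), at 30 to 40 they were 69.6% (55.2 to 80.9) and 56.5% (54.9 to 58.1), and at 40 to 80 they were 21 of 22 sites (95.5%, 78.2 to 99.2) and 78.6% (77.6 to 79.5). The intervals overlapped in all 7 bands, but the share of unlisted sites was the higher in every band from 12 upwards. Overlap does not show that this difference is counting error, and it was not tested. In the 40 to 80 band the median log2 ratio of uninduced DNSnf2h to uninduced DNCHD4 density was -1.43 at listed unlisted sites and -1.81 at listed retained sites.

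After DNSnf2h induction unlisted sites were listed less often than retained sites in every band, and from a density of 20 upwards the intervals did not overlap. The induced DNSnf2h list held 64 of 354 unlisted sites (18.1%, 14.4 to 22.4). At a density of 30 to 40 it held 28.3% of unlisted and 49.6% of retained sites, and at 40 to 80 it held 10 of 22 (45.5%, 26.9 to 65.3) against 78.3% (77.4 to 79.2). Of unlisted sites with a density of 25 to 80 in the uninduced DNSnf2h list, 53 of 78 (67.9%, 57.0 to 77.3) were lost after induction, against 24.0% of retained sites (23.1 to 24.9). The reverse step was balanced, since 7 of 32 unlisted sites in the induced list (21.9%) were absent from the uninduced list, against 20.5% of retained sites. By the 2-fold rule, 22 of 159 unlisted sites in either DNSnf2h list (13.8%, 9.32 to 20.1) were lower, against 4.68% of all sites of the line and 7.696% of retained sites in either list. At a density of 25 to 80 the shares were 18 of 85 unlisted sites (21.2%, 13.8 to 31.0) and 9.04% of retained sites (8.51 to 9.59). With the median ratio set to 1, 20 unlisted sites (12.6%) were lower, against 4.47% of all sites. A single unlisted site was 2-fold higher (0.629%), against 1.93%. Of the 39 sites in both DNSnf2h lists, 3 (7.69%) were lower, against 6.74% of all sites so listed. Their median log2 ratio was -0.17 against -0.01 at retained sites. Sites that fell below the threshold are not among the 39. With the mean instead of the highest density as the value of a site, 100 unlisted sites were lower in DNSnf2h cells, so this count rests on the measure used. The share of all sites under the mean was not computed, so the 100 is no result about the unlisted sites.

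**Figure D5:**
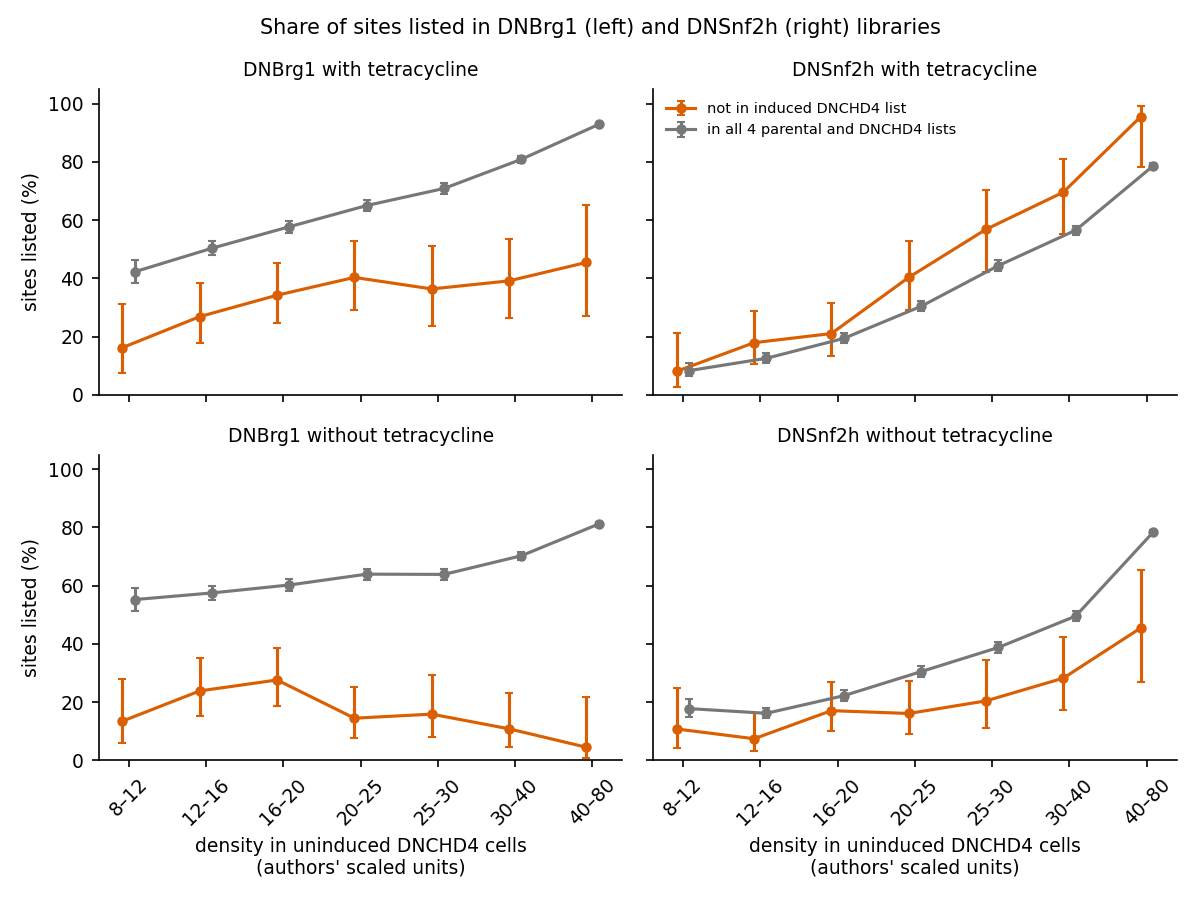
Share of unlisted (orange) and retained (grey) sites held by each DNBrg1 and DNSnf2h list, by density in uninduced DNCHD4 cells (authors' scaled units), with 95% Wilson intervals. Unlisted sites lie under retained sites in both DNBrg1 libraries. In DNSnf2h cells they lie near or above them with tetracycline, up to 95.5% against 78.6%, and under them without it, at 45.5% against 78.3%.

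By the same rule, both DNSnf2h lists held 15 such unlisted sites. The greatest falls among them were at 2 of the strongest sites described above, on chromosome 11, and at chr9:122434629-122435416. These falls ended at 8.87, 9.07 and 8.87, near the lowest density of the induced DNSnf2h list, 8.06. At the chromosome 9 site density went from 18.5 to 8.87 in DNSnf2h cells, a fall of 2.08-fold (1.45 to 3.05). In parental cells it went from 29.5 to 11.8, 2.49-fold (1.73 to 3.62). The highest ratio was at chr6:140570039-140570729, where DNSnf2h density rose from 13.1 to 20.8, or 1.59-fold (1.16 to 2.18). Uninduced DNBrg1 cells had 29.3 at this site and induced DNBrg1 cells did not list it. The only induced DNBrg1 hotspot within 50 kb had 70.9, so a fall is not shown there, and parental cells had 22.9 and 17.0. At chr16:18323383-18324121 DNSnf2h density was 16.6 and 18.1, a ratio of 1.09 (0.805 to 1.48), while parental cells fell 1.57-fold (1.20 to 2.05) and the site, at 37.5 in uninduced DNBrg1 cells, was not listed in induced ones. At chr17:8000144-8000914 the DNSnf2h values were 18.1 and 17.3, beside a parental fall of 2.47-fold (1.69 to 3.66). At these 3 sites no fall beyond counting error was seen in DNSnf2h cells, while density fell in parental cells at those on chromosomes 16 and 17.

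The 4 DNBrg1 and DNSnf2h lists together show how unevenly these sites were shared. None of the 4 lists held 121 of the 354 unlisted sites (34.2%), against 4.88% of retained sites. All 4 held 3 sites (0.847%, 0.289 to 2.46), against 44.5% of retained sites. The commonest pattern after absence was presence in the uninduced DNSnf2h list alone, with 62 sites (17.5%, against 2.66% of retained sites), followed by the uninduced DNBrg1 list alone, with 38 (10.7%, against 3.31%). A further 19 unlisted sites were in both uninduced lists and neither induced list, while 3 were in both induced lists and neither uninduced list. The corresponding counts of retained sites were 720 and 211. Listing before induction alone was therefore more frequent than listing after induction alone in both groups.

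The 3 sites in all 7 other libraries had densities from 8.22 to 46.3. At chr17:5813682-5814373 density was 30.1 in uninduced DNCHD4 cells, 27.0 and 10.6 in parental cells, 21.1 and 10.5 in DNBrg1 cells, and 13.6 and 15.9 in DNSnf2h cells. Its local bound in DNCHD4 cells was 3.41-fold, and it fell 2.56-fold (1.74 to 3.80) in parental cells. At chr13:5713272-5714241 density was 11.6 in uninduced DNCHD4 cells, 17.1 and 17.0 in parental cells, 46.3 and 23.5 in DNBrg1 cells, and 8.22 and 9.07 in DNSnf2h cells. The lowest induced DNCHD4 hotspot within 50 kb was 13.5, above the value of the site, so a fall is not shown there. At chr8:13640397-13641092 density was 18.96 in uninduced DNCHD4 cells, 13.0 and 15.4 in parental cells, 21.1 and 12.2 in DNBrg1 cells, and 11.95 and 13.1 in DNSnf2h cells, with a local bound of 1.56-fold.

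Of the 121 sites found in no DNBrg1 or DNSnf2h list, the strongest was chr16:23094086-23094778. Its density was 37.6 in uninduced DNCHD4 cells and 30.7 and 11.6 in parental cells, a parental fall of 2.65-fold (1.84 to 3.86). The next were chr17:13816655-13817278, with 36.9 in uninduced DNCHD4 and 35.7 and 23.4 in parental cells, and chr17:24754686-24755310, with 32.6, and 34.4 and 18.0. Their parental falls were 1.52-fold (1.15 to 2.03) and 1.91-fold (1.40 to 2.61). Even these sites reached only the 30 to 40 band, and none of the 22 unlisted sites of the 40 to 80 band was absent from all 4 lists, which allows a share of up to 13.6%.

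Unlisted sites were narrow, and slightly narrower than retained sites of the same uninduced DNCHD4 density. Their merged width ran from 443 to 1322 bp with a median of 653 bp, against 869 bp for retained sites. A retained site can be widened by hotspots of more libraries, so the width of the hotspot in uninduced DNCHD4 cells is the closer comparison. Its median was 628 bp at unlisted and 787 bp at retained sites, and within bands 566 against 588 bp at a density of 12 to 16, 657.5 against 692 bp at 25 to 30, and 758.5 against 819 bp at 40 to 80. The peak was about as sharp in both groups, with a highest density of 3.40 and 3.35 times the mean density at 20 to 25, and of 3.84 and 3.63 times at 40 to 80.

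The widest, chr1:194301269-194302591, spanned 1322 bp with a density of 18.2 in uninduced DNCHD4 cells and 19.5 and 13.9 in parental cells. The next, chr5:65845318-65846573 and chr19:27566217-27567460, spanned 1255 and 1243 bp with uninduced DNCHD4 densities of 27.0 and 15.7. The narrowest, chr9:107580428-107580871, chr1:186614908-186615362 and chr9:58097345-58097808, spanned 443, 454 and 463 bp with uninduced DNCHD4 densities of 13.6, 14.7 and 11.8. Against the lowest induced hotspot within 50 kb, a fall is not shown at the narrow pair on chromosome 9, where the local value exceeded that of the site.

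Every unlisted site lay within 50 kb of a hotspot of induced DNCHD4 cells. The induced DNCHD4 list had at least 1 hotspot within 50 kb of all 354 sites, and the median number was 7. The share of retained sites with such a hotspot was not computed. In merged sites of that list, the median number within 50 kb was 7 at unlisted and 6 at retained sites. The nearest was at a median of 3140 bp, and 87 sites (24.6%) had one within 1 kb. Counted by merged sites, another induced DNCHD4 site lay within 1 kb of 25.7% of unlisted sites (21.4 to 30.5) and of 24.1% of retained sites (23.6 to 24.6), and the intervals overlapped. Within 5 kb the shares were 62.4% (57.3 to 67.3) and 55.9% (55.3 to 56.5), and within 10 kb 80.8% (76.4 to 84.6) and 73.99% (73.5 to 74.5), so unlisted sites more often had an induced site at these distances. Where such a neighbour existed, it was absent from the uninduced DNCHD4 list in 15 of 91 cases (16.5%, 10.3 to 25.4) at unlisted and in 26.2% (25.2 to 27.3) at retained sites. Newly listed hotspots were thus not more frequent next to the sites that were lost. Within 100 kb centred on a site there was a median of 9 merged sites for unlisted and 8 for retained sites, and 11.5 against 8 in the 40 to 80 band.

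Retained sites close to unlisted sites had slightly lower DNCHD4 ratios than retained sites in general. Within 10 kb of an unlisted site, 389 retained sites had a median log2 ratio of -0.11, induced over uninduced, and 46 of them (11.8%) were at least 2-fold lower. From 10 to 50 kb away, 1006 sites had a median of -0.06 and 9.24% were lower, and from 50 to 100 kb away 1023 sites had 0.00 and 7.82%. Over all retained sites the median was 0.01 and 8.62% were lower. The shift near unlisted sites was small beside the bounds at the sites themselves, and 4.63% of the sites within 10 kb were at least 2-fold higher.

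The sites were scattered over all autosomes and the X chromosome. Chromosomes 8, 6 and 9 had the largest shares, with 28 of 1531 (1.83%, 1.27 to 2.63), 26 of 1466 (1.77%, 1.21 to 2.59) and 25 of 1497 sites (1.67%, 1.13 to 2.45). Chromosome X had the smallest, with 4 of 584 (0.685%, 0.267 to 1.75), and these intervals overlap. Few sites were close to each other: 13 neighbouring pairs lay within 50 kb. The closest pair, chr1:34021349-34021999 and chr1:34023066-34023693, was 1067 bp apart with uninduced DNCHD4 densities of 18.6 and 13.4. The pair at chr10:76547081-76547890 and chr10:76561258-76561987, 13368 bp apart, was strong at both sites, with densities of 55.5 and 39.4.

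The number of sites that met the rule was small beside the same rule in the other lines. Of parental sites in the uninduced list of a line, 1.24% were absent from the induced list in DNCHD4, 13.4% (3162 of 23514) in DNBrg1 and 17.0% (3114 of 18298) in DNSnf2h. The opposite class, parental sites found in the induced but not the uninduced list, was 102 sites (0.359%) in DNCHD4, 7.39% in DNBrg1 and 15.9% in DNSnf2h. The induced DNCHD4 list reached down to 5.09, against 9.19 and 8.06 in the induced DNBrg1 and DNSnf2h lists, and the part of the list thresholds in these shares was not tested. The 102 sites of the opposite class had a parental median log2 ratio of -0.16, against -0.49 at unlisted sites. Their listing also differed: the uninduced DNSnf2h list held 5 of them (4.90%, 2.11 to 10.97) and the induced list 14 (13.7%, 8.36 to 21.7), against 37.9% and 18.1% of the unlisted sites.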

How the data were processed

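DNase-seq was done on 8 libraries, 1 per line and tetracycline state, and groups follow the labels. CASAVA 1.6 and build mm9 are named in the submitters' processing notes. For the caller of hotspots and its filters, the name and settings were not given in the labels or headers. Each deposited list holds, per the file headers, a highest and a mean tag density (the scaled signal of the authors). The deposited lists also hold the authors' enrichment score (z-score) and p-value per hotspot, which were not used for any result. Total depth is unknown, and 1 tag was worth a density of 0.179 to 0.586.

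Hotspots of the 8 lists were merged at 1 bp of overlap or more, and the value of a site is its highest density. A site was called changed at 2-fold, and where 1 library listed it, the lowest density of the list without it took the place of the missing value. Bands of uninduced DNCHD4 density were set after the data were seen. The members, lists and rules were chosen with earlier results of these data known. Named sites are the 6 strongest, the sites in 7 lists, the 3 lowest and 3 highest DNBrg1 and DNSnf2h ratios, the 3 strongest in no DNBrg1 or DNSnf2h list, the 3 widest and narrowest, and 2 on each side of the rule. These leave out sites at missing numbers and in clusters of 20 or more sites in 100 kb. The closest pair of sites, the strong pair on chromosome 10 and the tied site at chr10:3326181-3326853 were chosen after their values were seen. Shares have 95% Wilson and ratios 95% exact binomial intervals. The steps were tested on simulated data. Gene context and sequence were not analysed, because no reference of build mm9 was used here. Alternatives were the merging, thresholds, scaling, mean density, missing numbers and dense clusters. Python 3.11.15, numpy 2.4.6, pandas 2.3.3, scipy 1.17.1, statsmodels 0.14.6 and matplotlib 3.10.9 were used.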

Additional observations from a re-analysis of the deposited data

Results flagged for a closer look

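At chr6:140570039-140570729 the DNSnf2h and DNBrg1 lines differed in direction without tetracycline, if the lowest density of the induced DNBrg1 list is taken as the limit. DNSnf2h density rose 1.59-fold (1.16 to 2.18), while DNBrg1 density of 29.3 stood 3.19-fold above that limit. The only induced DNBrg1 hotspot within 50 kb had a density of 70.9, and against it no fall is shown. Each value rests on 1 library per state, and the difference between the lines was not tested.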

How the results depend on the processing

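No paired analysis was possible because each group has 1 library and the title numbers mark tetracycline state, not replicates. Of 59 alternative values, 38 stayed within 1.5 times the reported count or within the interval of the reported median, and 21 did not. Counts and widths have no direction to change, and the parental median log2 ratio stayed below 0 in each setting. Counts were compared and not shares, although the number of sites changed. The 258 of 707 sites with a 2-fold bound at a common threshold thus counted as unchanged beside 344 of 354. Merging the 4 parental and DNCHD4 lists alone, leaving out missing numbers and leaving out dense clusters moved no result past those limits. Merging within 200 bp left 55 sites with an induced hotspot within 1 kb. In another setting the parental and uninduced DNCHD4 lists were limited to 1.5 times their lowest density, with the induced DNCHD4 list left whole. That left 79 sites, all 79 with a 2-fold bound, 25 lower in DNBrg1 and 11 lower in DNSnf2h. Of these sites, 0 were in all 4 other lists and 15 near an induced hotspot. Their parental median was -0.60 and their width 668 bp. At a common threshold there were 707 sites, 258 with a 2-fold bound, 186 lower in DNBrg1, 76 lower in DNSnf2h and 41 in all 4 other lists. Their parental median was -0.39 and their width 691 bp. With mean density, 100 sites were lower in DNSnf2h. Shares over all sites were not computed for these thresholds or for mean density, so the counts of lower sites there are no result about the unlisted sites. With the median ratio set to 1, 13 were lower in DNBrg1 and the parental median was -0.092. Chosen after seeing the data, the local bound left 143 sites at 2-fold, and counting only sites in both lists left 12 lower in DNBrg1 and 3 in DNSnf2h. The unknown depth and the thresholds of the lists limit every statement on absence.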
